A study of Mus musculus with 33 samples.

Results

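The genes described here code for enzymes and membrane proteins of the lysosome, the acidic organelle in which cells break down proteins, sugars and lipids. A list of 38 gene symbols was looked up in the first column of the deposited count table, and all 38 were found among its 24061 gene rows. They comprised 9 proteases, 11 glycosidases, 5 sulfatases, 4 enzymes that cleave lipids or lipid anchors, 3 soluble cofactors or secreted proteins, 5 membrane proteins and the transcription factor gene Tfeb. All 38 passed the filter on low counts, which left 14607 genes to test. The counts came from bulk RNA sequencing of the nucleus accumbens, a ventral striatal region, of C57BL/6J mice. Each of the 33 libraries was taken as 1 mouse, as the titles give it. Conventional mice aged 7 to 9 weeks drank water (H2O) or a mixture (Abx) of antibiotics (vancomycin and bacitracin at 0.5 mg/mL, neomycin at 2 mg/mL) and the antifungal pimaricin (1.2 µg/mL), starting 2 weeks ahead of the injections. Drinks were assigned to cages, not to single mice. The germ-free animals (GF) were of like age, came from in-house breeding and lived in isolators, so GF status cannot be told apart from breeding place and housing. Within each of the 3 microbiome states mice received saline (6 libraries each) or morphine at 20 mg/kg per day for 7 days (5 libraries each).

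Most soluble lysosomal enzymes are made in the endoplasmic reticulum, tagged with mannose 6-phosphate and carried to the lysosome, while proteins such as LAMP1 and LAMP2 form much of its membrane coat. TFEB and its relatives switch on many of these genes together by binding a short promoter element whose core is CACGTG. In the brain, all cell types hold lysosomes, microglia among the richest, and loss of single enzymes causes storage diseases of the nervous system.

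Promoter windows from RefSeq (build GRCm38.p6), from 250 bases before to 50 bases after each gene start, were found for 33 of the 38 genes. Those of Ctsb, Ctsh, Galns, Asah1 and Npc1 were not used here. The palindrome CACGTG, which reads the same on both strands, was present in 12 of the 33 (36.4%) and in 8.09% of the 27025 genes in the table. The longer form TCACGTGA, which contains it, was present in 4 of the 33 (12.1%) against 1.12% of all genes. A palindrome that extends TCACGTGA by 1 base on each side (G before, C after) was present in 0 of the 33 and in 0.37% of all genes. Lamp1 held the core 4 times, at 61, 45, 28 and 15 bases before its start. The 100 bases before the start, with each CACGTG in capitals, are shown for Lamp1 as the gene with most copies, for Ctsa and Naglu, which were lower in germ-free mice, and for Hexa and Tpp1, which were lower in antibiotic-treated mice. They lie at chr8:13159061-13159160 (+), chr2:164833673-164833772 (+), chr11:101069994-101070093 (+), chr9:59539440-59539539 (+) and chr7:105752236-105752335 (-), in that order.
Lamp1: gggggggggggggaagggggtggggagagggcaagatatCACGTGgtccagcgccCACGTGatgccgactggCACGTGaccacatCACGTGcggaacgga
Ctsa: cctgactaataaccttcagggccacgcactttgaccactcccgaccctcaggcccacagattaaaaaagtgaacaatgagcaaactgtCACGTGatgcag
Naglu: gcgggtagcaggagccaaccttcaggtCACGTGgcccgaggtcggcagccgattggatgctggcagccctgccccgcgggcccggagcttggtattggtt
Hexa: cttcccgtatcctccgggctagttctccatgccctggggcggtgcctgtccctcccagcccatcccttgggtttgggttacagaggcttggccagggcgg
Tpp1: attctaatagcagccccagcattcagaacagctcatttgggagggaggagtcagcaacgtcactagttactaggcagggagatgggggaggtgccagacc
The stretches of Hexa and Tpp1 held no CACGTG, nor did their whole windows, which says only that these letters are not there. Where a gene has more than 1 window, the stretch with most copies is shown. That of Ctsa comes from the only one of its windows with CACGTG.

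Each library held between 4.87 and 15.3 M reads (M, megareads) assigned to genes. GF libraries were shallower, at 4.87 to 8.13 M, except GF saline replicate 1 at 15.3 M, while the 22 conventional libraries held 9.36 to 15.3 M. Genes of medium spiny neurons, the main neurons of the labelled region, were detected in every library, with Ppp1r1b at 490 to 1470 CPM (reads of the gene per M assigned reads, scaled between libraries) and Drd2 at 54.1 to 215 CPM. The sum of 10 such markers was lowest in GF saline replicate 5 (2382 CPM), and all 10 had log2 fold changes below 0 in GF saline against H2O saline mice, 2 of them called. The sum of 7 markers of cortical-type glutamatergic neurons ran from 8.61 to 1481 CPM over libraries, and was 8.76 to 12.3 CPM in GF morphine and 153 to 977 CPM in Abx morphine libraries; its part in the results was not tested. In these bulk samples, fewer cells of a type and less RNA per cell cannot be told apart. GF saline replicate 1 stood apart from the other GF libraries in depth, and counts of calls are therefore also given without it.

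Together the 38 genes held a similar share of the reads in every group, from 5961 ± 127 CPM in Abx morphine to 6277 ± 82.9 CPM in H2O saline libraries (SD, n = 5 and 6). Single libraries ranged from 5826 to 6751 CPM. Psap, which codes for the precursor of the saposins that help enzymes reach their lipids, made up 29.1% to 32.2% of this sum. Per kilobase of the longest annotated transcript, Psap stood at 698 CPM per kb and did not overlap the next gene in any library. It was followed by Gaa, the acid alpha-glucosidase that degrades glycogen (212 CPM per kb), the aspartic protease gene Ctsd (192), the membrane protein gene Lamp1 (167), the cysteine protease gene Ctsb (126) and the sulfatase gene Ids (89.5). Neighbours in the order from Gaa to Ids overlapped each other over the 33 libraries. Ids in turn stood clear of the seventh gene, Smpd1, at 50.1 CPM per kb. Below it each gene overlapped the next, down to the protease gene Ctsc at 1.87 and the heparan sulfatase gene Sgsh at 1.22 CPM per kb.

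**Figure D1:**
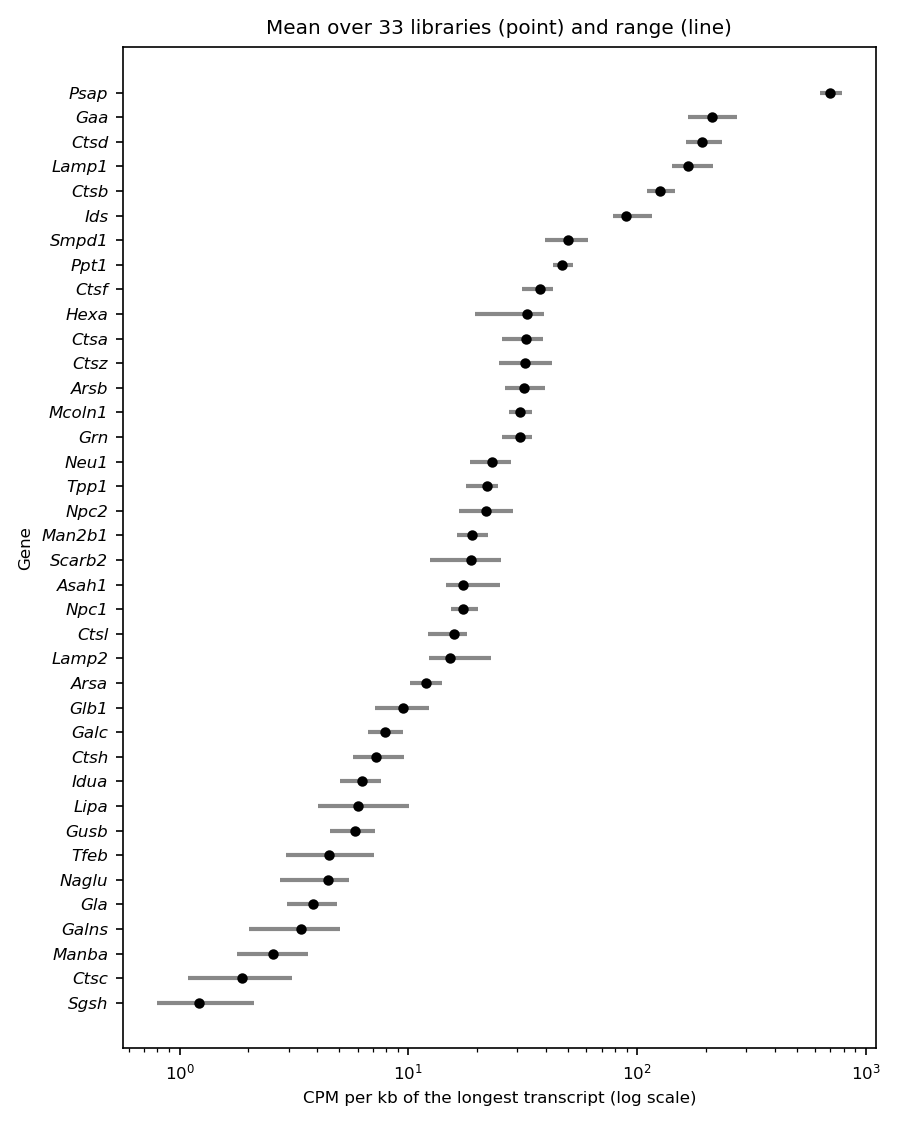
Level of each of the 38 genes in CPM per kilobase of the longest transcript on a log axis. Points are means over 33 libraries and lines run from the lowest to the highest library; Psap at 698 CPM per kb stands clear of all others, and Sgsh at 1.22 is the lowest.

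Differences were tested in 8 pairwise comparisons and 2 interactions with edgeR's quasi-likelihood test, two-sided, and adjusted by the Benjamini-Hochberg method over all 14607 genes; a gene is called at an adjusted p under 0.05. Since nothing in the labels gives cages or batches, the p-values measure the spread between these mice. Drinks were assigned to cages, so drink and cage cannot be told apart here, and the p-values of Abx comparisons take no account of cage. Of the 38 genes, 14 were called in at least 1 pairwise comparison and 24 in none. The 26 calls were 7 higher and 19 lower, and all were small, with log2 fold changes of 0.11 to 0.55 in size. Several comparisons share control libraries, so their calls are not independent of each other.

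**Figure D2:**
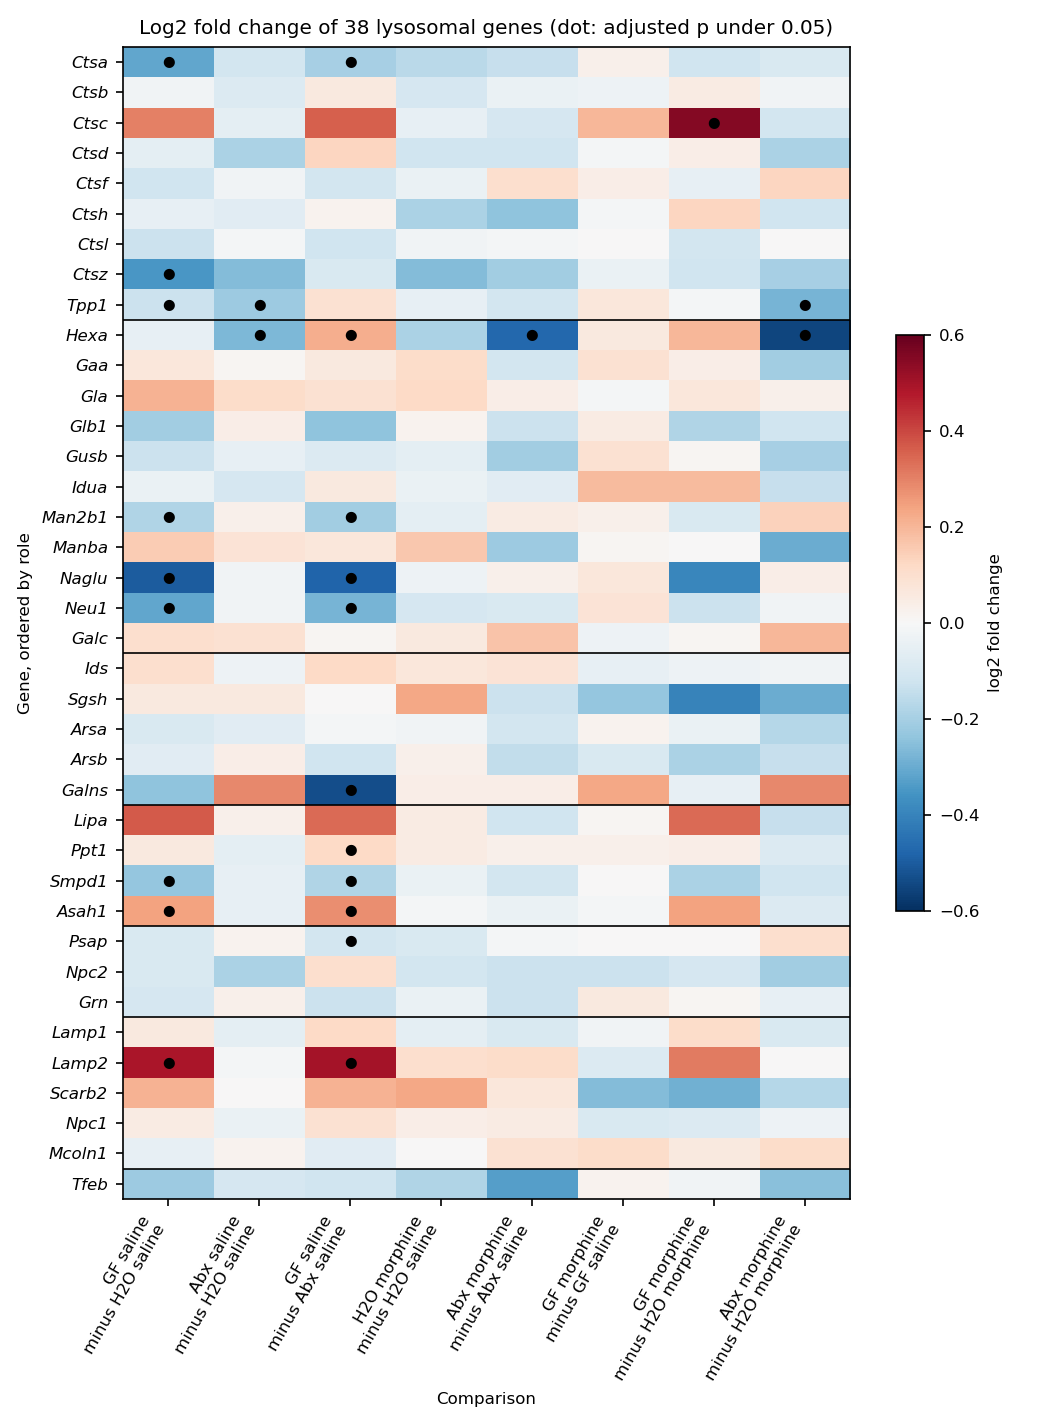
Log2 fold change of the 38 genes (rows, ordered by role, with lines between roles) in the 8 pairwise comparisons (columns), from blue (lower) to red (higher), with a dot where the adjusted p was under 0.05. Hexa has dots in 4 columns, each a comparison with Abx mice, while Naglu, Neu1, Ctsa and Lamp2 have theirs in both columns that set GF saline against another saline group.

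Antibiotic-treated mice were compared with water-drinking mice to ask how depletion of the microbiome goes with lysosomal expression, first in saline and then in morphine mice. The calls in both settings were Hexa and Tpp1. Hexa codes for the alpha subunit of beta-hexosaminidase, which degrades the ganglioside GM2, and Tpp1 for a protease that removes tripeptides from protein ends. In saline mice 0 of 38 genes rose and 2 fell (5.26%), where 0.116% of all genes were called, 0.0616% higher and 0.0548% lower. In morphine mice 0 rose and 2 fell (5.26%), where 10.3% of all genes were called, 4.57% higher and 5.76% lower, so that the share was below the background. The median log2 fold change of the 38 genes was -0.03 in saline and -0.10 in morphine mice, against 0.01 and 0.00 for all genes.

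Hexa was measured at 66.7, 75.7 and 77.8 CPM (lowest, median and highest) in H2O saline libraries and at 55.8, 61.2 and 70.3 CPM in Abx saline libraries. In H2O morphine libraries it stood at 63.1, 64.3, 65.3, 66.5 and 67.3 CPM, and in Abx morphine libraries at 39.0, 40.1, 44.4, 49.2 and 49.5 CPM. In GF mice it stood at 65.2, 73.2 and 75.3 CPM with saline and at 73.1, 73.2, 73.3, 77.2 and 77.3 CPM with morphine. The 5 Abx morphine libraries were thus below all 28 others, whereas the 2 saline groups of conventional mice overlapped. The log2 fold change between Abx morphine and H2O morphine was -0.55 ± 0.06 (SE), so that Hexa fell by 31.9%, with an adjusted p of 5.48e-07 in edgeR's test. Between Abx saline and H2O saline it was -0.27 ± 0.06, with an adjusted p of 0.0421 and 5 of 6 Abx libraries below every H2O library. An exon of the gene model of Hexa overlaps one of Tmem202 on the other strand in GENCODE M21, and whether the counting used strand is not given in the sources used here. Exons of Ctsa, Ctsb, Ctsl, Ctsz, Idua, Sgsh, Arsa, Arsb, Galc, Ppt1, Grn, Lamp1 and Npc1 likewise overlap a gene on the other strand. Those of Ctsd (808 bases, with Gm49369), Glb1 (165 bases, with Tmppe) and Ctsl (395 bases, with the pseudogene Gm49230) overlap one on the same strand, whatever the setting. Of these same-strand partners only Tmppe has a row under that name in the count table. The other-strand partners of Ctsl, Arsb, Galc and Npc1 have none either. The counts of the lysosomal genes with such overlaps are uncertain to that extent.

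Tpp1 stood at 83.2, 86.4 and 87.9 CPM (lowest, median and highest) in H2O saline and at 67.9, 73.4 and 79.7 CPM in Abx saline libraries. With morphine it stood at 80.3, 80.3, 82.9, 84.1 and 86.2 CPM in H2O and at 63.6, 64.7, 67.2, 72.0 and 73.1 CPM in Abx libraries. Abx and H2O libraries did not overlap in either pair, and 1.68% of all genes were free of overlap in the saline pair and 13.2% in the morphine pair. The log2 fold change was -0.22 ± 0.04 with saline (adjusted p = 0.0258) and -0.28 ± 0.05 with morphine (adjusted p = 0.000257) in edgeR's test. The morphine-group calls of both genes were kept when each library was left out in turn. The saline calls were not: Tpp1 was no longer called without Abx saline replicate 4, 5 or 6 or H2O saline replicate 5, 6, 8 or 9 (adjusted p up to 0.128), and Hexa in addition without Abx saline replicate 2 or H2O saline replicate 4 (up to 0.193).

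**Figure D3:**
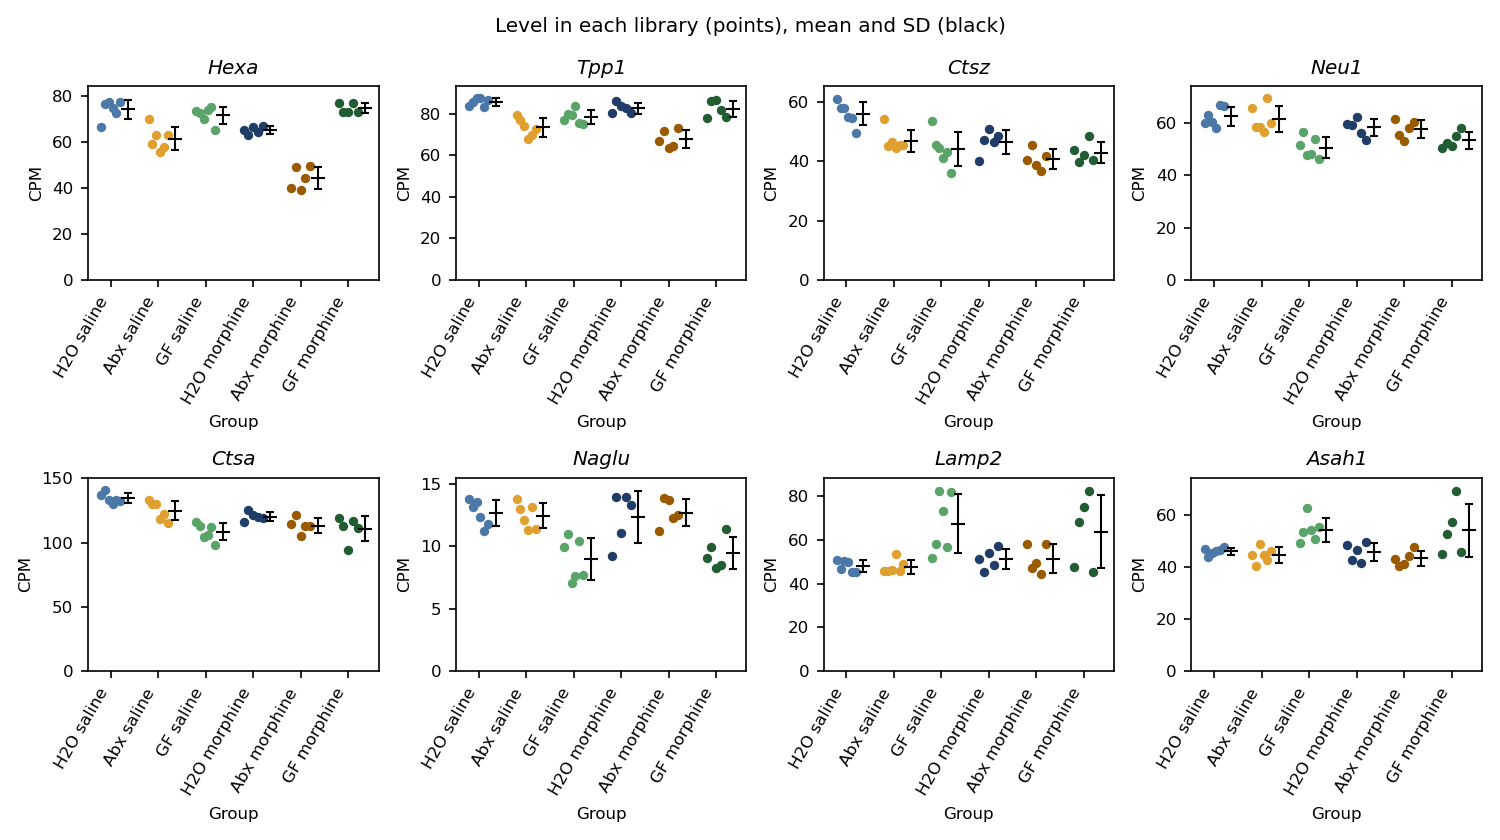
CPM of 8 lysosomal genes in each library (points) of the 6 groups, with the group mean and SD in black. Hexa is at 39.0 to 49.5 CPM in Abx morphine libraries, below all others, and Naglu is at 7.07 to 11.0 CPM in GF saline libraries.

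Among the genes not called, Ctsd had the next smallest p in the morphine pair after Hexa and Tpp1. It stood at 384, 405, 409.9, 418 and 429 CPM in H2O morphine and at 349, 354, 363, 364 and 370.2 CPM in Abx morphine libraries. These groups did not overlap, and the log2 fold change was -0.19 ± 0.07 (adjusted p = 0.0665 by edgeR's test). Ctsd was called lower by DESeq2 (adjusted p = 0.041), by voom (0.00457), in the fit of only these groups (0.0116) and after the GC correction (0.00817). The arylsulfatase gene Arsa (-0.17) and the alpha-mannosidase gene Man2b1 (0.14) were also free of overlap without being called by edgeR, and voom called Man2b1 higher. In all, 5 of the 38 genes (13.2%) were free of overlap in this pair, the same share as of all genes. Tfeb stood at 9.36, 11.4 and 12 CPM in Abx saline and at 7.99, 8.05, 8.62, 9.07 and 10.4 CPM in Abx morphine libraries, against 9.52, 12.1 and 14.5 CPM in H2O saline and 9.10, 10, 10.6, 11.4 and 11.7 CPM in H2O morphine. Its groups overlapped in both pairs, with log2 fold changes of -0.10 ± 0.14 (saline) and -0.25 ± 0.15 (morphine).

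A second list held 34 further lysosomal genes, of which 33 were tested. In the morphine pair 1 of them rose and 2 fell by edgeR's test, 9.09% where 10.3% of all genes were called. DESeq2 called 5 and voom 8, where they called 12.5% and 24.3% of all genes. The edgeR calls included Cd63, a tetraspanin gene (-0.39 ± 0.10, adjusted p = 0.00843 by edgeR's test), and Hgsnat, an acetyltransferase gene of heparan sulfate breakdown (0.22 ± 0.06, adjusted p = 0.0169). Gm2a, which codes for the activator protein that presents GM2 to the enzyme of Hexa, was not called, at -0.06 ± 0.07 on the log2 scale (adjusted p = 0.638). In the saline pair edgeR, DESeq2 and voom each called 0 of the 33, and 3 had an unadjusted p under 0.05 in edgeR's test.

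Markers of microglia were lower in the same groups. Their summed level over 19 genes was 784, 820.4 and 843 CPM (lowest, median and highest) in H2O saline, 602, 664 and 744 in Abx saline, 672, 702 and 755 in H2O morphine and 493, 509 and 586 in Abx morphine libraries. In the morphine pair 15 of the 19 fell and 0 rose, in the saline pair 2 fell and 0 rose, and no marker was at 0 in every library of a group. Of all genes, 5.76% were called lower and 4.57% higher in the morphine pair. In the saline pair these shares were 0.0548% and 0.0616%. Of 14 markers of myelinating oligodendrocytes, 4 fell in the morphine pair and 2 in the saline pair, and none rose in either. In the morphine pair 3 of 10 astrocyte markers and 2 of 8 endothelial markers also fell and none rose, and the summed level of 7 cortical-type neuron markers had a median of 658 CPM in Abx and 83.5 CPM in H2O libraries, with 0 of the 7 called. The part of these cell types in the values of Hexa and Tpp1 was not tested.

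**Figure D4:**
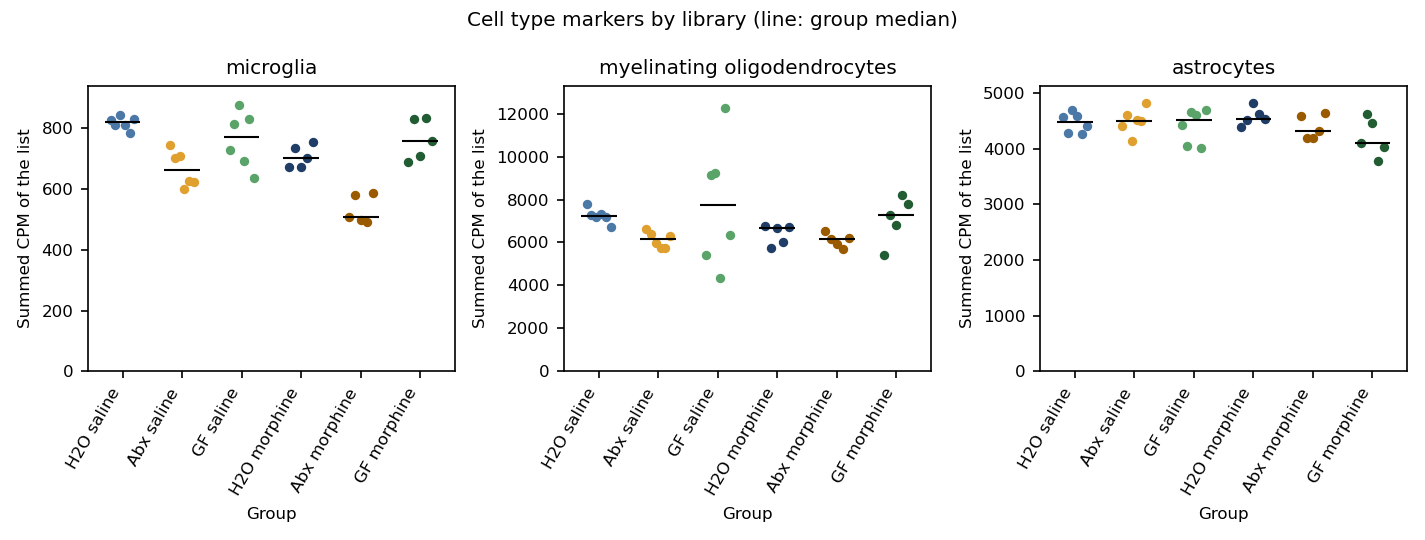
Summed CPM of the marker lists of microglia (19 genes), myelinating oligodendrocytes (14) and astrocytes (10) in each library, with the group median as a line. The microglia sum is at 493 to 586 CPM in Abx morphine and at 784 to 843 CPM in H2O saline libraries.

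Germ-free mice were compared with conventional mice to ask how the lifelong absence of microbes goes with lysosomal expression. In saline mice, enzyme genes of several roles were lower in GF than in H2O mice, while the membrane protein gene Lamp2 and the acid ceramidase gene Asah1 were higher. Of the 38 genes 2 rose and 7 fell, 23.7% in all, where 32.9% of all genes were called (18.0% higher, 14.9% lower), so the share was below the background. The median log2 fold change was -0.06 against 0.01 for all genes. Without GF saline replicate 1, 4 rose and 7 fell, where 38.4% of all genes were called; Lipa and Scarb2 were the added genes.

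Of 9 proteases, 3 fell and 0 rose, where 14.9% of all genes fell and 18.0% rose. Ctsa, which codes for a carboxypeptidase that also holds the sialidase NEU1 and beta-galactosidase in a stable complex, stood at 130.3, 133 and 141 CPM in H2O saline and at 98.3, 109 and 116 CPM in GF saline libraries (lowest, median and highest). The groups did not overlap, and the log2 fold change was -0.31 ± 0.05 (adjusted p = 6.14e-05, edgeR). Ctsz, a carboxypeptidase of the cathepsin family, fell by 0.35 ± 0.08 on the log2 scale, from a mean of 56.1 ± 3.97 to 44.0 ± 5.75 CPM (SD, n = 6 each). Tpp1 fell by 0.13 ± 0.05, with overlapping groups (75.1 to 83.9 CPM in GF saline), and was not called without GF saline replicate 6 or H2O saline replicate 6 (adjusted p up to 0.0678). Nor was Tpp1 called by voom, in the fit of only these groups or with a block for replicate number.

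Of 11 glycosidases, 3 fell and 0 rose, against the same 14.9% and 18.0% of all genes. Naglu, which removes N-acetylglucosamine from heparan sulfate, stood at 11.2, 12.8 and 13.8 CPM in H2O saline and at 7.07, 8.85 and 11.0 CPM in GF saline libraries. These groups did not overlap, and the log2 fold change of -0.50 ± 0.11 (adjusted p = 0.00109) was the largest decrease among the 38 genes in this comparison. Neu1, the sialidase gene, stood at 58.3, 62.0 and 67.0 CPM and at 46.2, 49.9 and 56.7 CPM. It too was free of overlap, with a log2 fold change of -0.31 ± 0.06 (adjusted p = 0.000301). Beta-galactosidase (Glb1), the other partner of the CTSA complex, stood at -0.21 ± 0.10 and was not called by edgeR. It was called lower by voom (-0.31, adjusted p = 0.0177), and by edgeR without GF saline replicate 5. Man2b1 fell by 0.18 ± 0.05, and 5 of 6 GF libraries lay below every H2O library. None of the 5 sulfatases was called.

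Among the 4 genes of lipid-cleaving enzymes, those of sphingolipid breakdown moved in opposite directions. Smpd1, the acid sphingomyelinase that makes ceramide, stood at 122, 132 and 138 CPM in H2O saline and 95.1, 112 and 124 CPM in GF saline libraries and fell by 0.23 ± 0.06. Asah1, the ceramidase that cleaves ceramide, stood at 44.1, 46.4 and 47.9 CPM and at 49.5, 54.0 and 62.8 CPM and rose by 0.24 ± 0.08 (adjusted p = 0.0177). The Asah1 groups did not overlap, but without GF saline replicate 3 it was not called (adjusted p = 0.0653). Of the 5 membrane protein genes only Lamp2, whose product takes part in chaperone-mediated autophagy, was called. It stood at 45.3, 48.2 and 51.0 CPM in H2O saline and at 51.8, 65.8 and 82.5 CPM in GF saline libraries, without overlap, and rose by 0.49 ± 0.12 (adjusted p = 0.00251). Lamp1 stood at 365, 381 and 387 CPM and at 346, 390.4 and 476 CPM, and Tfeb at 9.52, 12.1 and 14.5 CPM and at 6.84, 9.37 and 16.6 CPM. Both overlapped and neither was called by edgeR. Tfeb was called lower by voom (-0.40, adjusted p = 0.0238), and by edgeR without GF saline replicate 5. In all, 5 of the 38 genes were free of overlap, as were 9.52% of all genes.

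The GC content of a gene's longest transcript moved with these values. The 2 genes called higher had 38.7% and 43.5% GC, and the 7 called lower had 46.8% to 59.8%. Over the 38 genes the Spearman correlation of log2 fold change with GC content was -0.65, and it was -0.51 over 14475 genes tested; genes share libraries and are not independent, so no p is given. After a correction of each library for GC content and length, 0 of the 38 genes rose and 6 fell. That setting called 16.6% of all genes, so the share was near the background. Naglu (-0.31), Ctsa (-0.23), Tpp1 (-0.21) and Neu1 (-0.15) were still called lower, joined by the cysteine protease gene Ctsl (-0.35) and by Ids (-0.19). Lamp2 (0.13) and Asah1 (0.09) were no longer called, nor were Ctsz (-0.14), Man2b1 (-0.10) and Smpd1 (-0.10). With upper-quartile factors, 1 gene rose and 8 fell, where 34.0% of all genes were called.

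**Figure D5:**
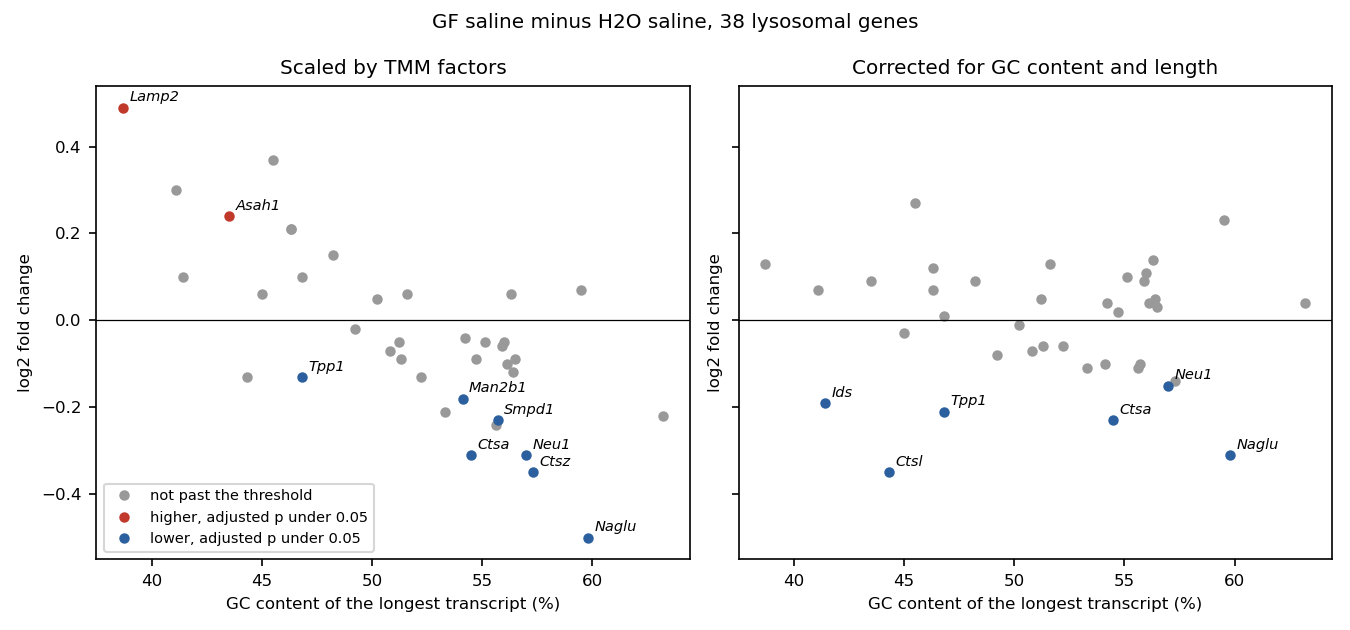
Log2 fold change of the 38 genes between GF saline and H2O saline mice against the GC content of the longest transcript, scaled by TMM factors (left) and after correction for GC content and length (right). Red and blue points have an adjusted p under 0.05. On the left Lamp2 is at 0.49 and Naglu at -0.50, and on the right they are at 0.13 and -0.31.

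Other markers also moved with GF status. Of 8 endothelial markers 6 fell and 0 rose in GF saline against H2O saline mice, and the summed level was 248, 271 and 274 CPM in H2O saline and 139, 206 and 246 CPM in GF saline libraries. Of 7 tested markers of the hypothalamus and pituitary 5 rose and 0 fell, with sums of 12.7, 19.1 and 55.7 CPM and of 14.4, 55.3 and 161 CPM. Of all genes, 18.0% were called higher and 14.9% lower in this comparison. The sum for myelinating oligodendrocytes spread from 4348 to 12267 CPM among GF saline libraries and from 6744 to 7797 CPM among H2O saline libraries. The part of these tissues in the lysosomal values was not tested.

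A further comparison set GF saline against Abx saline mice, that is, lifelong absence against depletion of microbes. Of the 38 genes 4 rose and 7 fell, 28.9% in all, where 27.4% of all genes were called (14.6% higher, 12.8% lower). Asah1, Galns, Naglu and Neu1 were free of overlap, as were 5.5% of all genes. Hexa (0.22 ± 0.06, adjusted p = 0.00562) and Ppt1, which removes fatty acyl groups from proteins (0.12 ± 0.04, adjusted p = 0.0292), were higher in GF mice, as were Lamp2 (0.50) and Asah1 (0.28). Naglu (-0.48), Neu1 (-0.28), Man2b1 (-0.21), Ctsa (-0.20), Smpd1 (-0.18) and Psap (-0.11) were lower. Galns, a sulfatase gene of keratan and chondroitin sulfate breakdown, had the largest decrease. It stood at 9.04, 9.59 and 12.8 CPM in Abx saline and at 5.16, 7.03 and 8.81 CPM in GF saline libraries, without overlap, and fell by 0.53 ± 0.13 (adjusted p = 0.00431). Galns stood at 6.50 to 9.19 CPM in H2O saline libraries, and neither state differed from H2O in the test (-0.24 ± 0.14 for GF and 0.29 ± 0.13 for Abx).

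With the GC correction 3 genes were called higher (Hexa, Ctsd and Lamp1) and 2 lower (Galns and Ctsl), where 14.1% of all genes were called. Of the 11 calls it kept those of Hexa and Galns, and those of Lamp2, Asah1, Ppt1, Naglu, Neu1, Ctsa, Man2b1, Smpd1 and Psap were lost. With it Hexa stood at 0.37, Galns at -0.39 and Psap turned to 0.02. Upper-quartile factors gave 3 higher and 9 lower, where 28.7% of all genes were called. Without GF saline replicate 1, 7 rose and 7 fell, where 33.3% of all genes were called. Ppt1 was not called without Abx saline replicate 1 or 3 or GF saline replicate 3 or 4 (adjusted p up to 0.105), nor Smpd1 without Abx saline replicate 5 or GF saline replicate 6 (up to 0.0641). Psap was not called without Abx saline replicate 1, 4 or 5 or GF saline replicate 2, 3, 4 or 6 (up to 0.109). Of 19 microglia markers 6 rose and 0 fell here (31.6% called, near the 27.4% of all genes). Of all genes, 14.6% were called higher and 12.8% lower. Higher in GF mice were also 7 of 14 myelin markers and 5 of 7 hypothalamus and pituitary markers. Astrocyte markers were called in both directions, among them Aqp4 (0.49) and Sox9 (-0.46). Of the cortical-type neuron markers 2 of 7 fell and of the endothelial markers 2 of 8. The part of these cells in the lysosomal values was not tested.

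Morphine was compared with saline within each microbiome state. In H2O mice 0 of 38 genes and 0.0% of all genes were called by edgeR's test. At an unadjusted p under 0.05 there were 4 (10.5%), against 15.2% of all genes. DESeq2 called 1, where it called 1.74% of all genes, and limma's voom fit 4, where it called 9.07%. Those 4 were Scarb2, the sorting receptor gene of glucocerebrosidase (0.23 ± 0.09), and Ctsa (-0.16), Ctsz (-0.26) and Hexa (-0.19). Scarb2 stood at 79.7, 83.5 and 88.6 CPM with saline and at 93.4, 97.0, 97.1, 99.6 and 105 CPM with morphine. Ctsa stood at 116, 119, 120, 121 and 125 CPM with morphine, below its 130.3 to 141 CPM with saline. These were the 2 genes of 38 free of overlap, where 5.81% of all genes were. The Spearman correlation of log2 fold change with transcript length was 0.512 over the 38 genes here and 0.439 over 14475 genes tested. After the GC and length correction 0 of the 38 were called.

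In Abx mice Hexa was lower with morphine: by edgeR's test 0 of 38 genes rose and 1 fell, where 5.42% of all genes were called (2.22% higher, 3.2% lower). The log2 fold change of Hexa was -0.47 ± 0.06 (adjusted p = 2.61e-05, edgeR), and its level fell by 27.8%. Its groups did not overlap, as was the case for 6.29% of all genes, and the call was kept under every alternative and without each library in turn. Of the 19 microglia markers 10 fell and 0 rose in this comparison; their part in the value of Hexa was not tested. DESeq2 also called Hexa alone, whereas voom called Ctsa, Ctsh, Ctsz, Tfeb and Tpp1 lower besides, and the GC correction called Ctsf higher. Of all genes voom called 16.7% here. The difference of this response from that in H2O mice was -0.28 ± 0.09 for Hexa (adjusted p = 0.269), so it was not shown to differ. Of the 38 genes, 0 were called in that interaction and 1 had an unadjusted p under 0.05. The interaction called 0.11% of all genes (0.0479% higher, 0.0616% lower), and neither DESeq2 nor voom called any of the 38.

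In GF mice 0 of 38 genes were called by edgeR, DESeq2 or voom, 3 had an unadjusted p under 0.05, and 0.00685% of all genes were called. The 95% intervals of all 38 genes lay within 1.5-fold in this comparison and in that of H2O mice. Scarb2 had an estimate of -0.26 ± 0.09 in GF mice, where it stood at 85.0 to 119 CPM with saline and at 58.3, 75.1, 81.4, 94.3 and 94.5 CPM with morphine. Its response differed from that in H2O mice by -0.49 ± 0.13 (adjusted p = 0.0957, edgeR). Of the 38 genes, 0 were called in this interaction, where 0.0% of all genes were; 4 had an unadjusted p under 0.05, DESeq2 called 1, Scarb2, and voom 0. Without GF morphine replicate 2 the edgeR test called Scarb2. In this interaction the Spearman correlation of log2 fold change with transcript length was -0.561 over the 38 genes. Over 14475 genes tested it was -0.518. The GC and length correction called 0 of the 38, and the part of transcript length in the value of Scarb2 was not tested.

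Between GF morphine and H2O morphine mice 1 of 38 genes rose and 0 fell, where 5.86% of all genes were called (3.2% higher, 2.66% lower). Ctsc, a dipeptidyl peptidase that activates proteases of immune cells, stood at 4.72, 5.00, 5.37, 5.73 and 5.92 CPM in H2O morphine and at 6.16, 6.68, 8.36, 8.53 and 9.67 CPM in GF morphine libraries. The groups did not overlap, and the log2 fold change was 0.55 ± 0.16 (adjusted p = 0.039, edgeR). The call was lost after the GC correction (0.40, adjusted p = 0.161; 0.0196 to 0.161 over the alternatives) and without GF morphine replicate 3, 5 or 6 or H2O morphine replicate 2, 3, 5 or 6 (adjusted p up to 0.133). Hexa and Smpd1 were also free of overlap, as were 5.69% of all genes, with log2 fold changes of 0.20 ± 0.06 and -0.19 ± 0.06. The GC correction called Hexa higher (0.23). In GF saline mice Ctsc stood at 5.14, 6.71 and 10 CPM and was not called against H2O saline (0.30 ± 0.15).

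Genes of lysosome acidification, sorting and control were read from further lists. In GF saline against H2O saline mice, 3 of 17 subunit genes of the vacuolar ATPase, the proton pump of the lysosome, rose and 4 fell, with Atp6v0e at 0.45 and Atp6v1e1 at -0.21 (41.2% called). Of 9 genes of enzyme sorting, the subunit genes of the mannose 6-phosphate tagging enzyme moved apart, Gnptg falling (-0.33) and Gnptab rising (0.17; 22.2% called). Of 16 relatives and regulators of TFEB, 3 rose and 5 fell, among them its relative Tfe3 (-0.19) and Akt1s1, a regulator of the kinase complex mTORC1 (-0.32; 50% called). Of 22 autophagy genes 1 rose and 2 fell, with Atg12 at 0.26 and Vps11 at -0.20 (13.6% called). Against the 32.9% of all genes called in the main fit, the shares of sorting and autophagy were lower and those of the vacuolar ATPase and TFEB lists higher. Under the other 7 settings that keep all libraries the 4 counts were 3 to 9, 1 to 2, 2 to 8 and 3 to 8. After the GC correction they were 3, 2, 2 and 4, where 16.6% of all genes were called. Against that share, sorting (2 of 9) and autophagy (4 of 22) were not lower. The vacuolar ATPase list (3 of 17) was then near it, and the TFEB list (2 of 16) was no longer above it. Between Abx morphine and H2O morphine mice these lists gave 0 and 1, 0 and 1, 1 and 1, and 1 and 1 genes higher and lower (5.88% to 12.5% called, where 10.3% of all genes were), including the sorting adaptor gene Gga1 (-0.24) and Lamtor5, a subunit gene of the Ragulator complex (-0.32). Between Abx saline and H2O saline mice edgeR called 0 genes of these 4 lists, with 1, 0, 2 and 1 genes at an unadjusted p under 0.05. DESeq2 called 0 in each, and voom 1 gene, of the TFEB list.

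Calls were also counted by promoter element. In GF saline against H2O saline mice 2 of 12 genes with CACGTG in the window were called, both lower, and of 21 without it 1 rose and 5 fell, with a median log2 fold change of -0.07 in each set. Both shares were below the 32.9% of all genes called. In Abx morphine against H2O morphine mice 0 of the 12 and 2 of the 21 were called, with medians of -0.09 and -0.14, where 10.3% of all genes were called. The 24 genes that edgeR called in no pairwise comparison included Ctsb, Ctsd, Gaa, Ids, Grn, Npc2, Lamp1, Npc1, Mcoln1 and Tfeb. Other settings did call some of them, such as voom for Ctsd, Gaa, Npc2, Mcoln1, Tfeb, Ids and Grn and the GC correction for Lamp1. Their log2 fold changes ran from -0.40 for Sgsh in GF morphine against H2O morphine to 0.37 for the acid lipase gene Lipa in GF saline against H2O saline mice.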

How the data were processed

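Raw read counts for each gene symbol were deposited by the authors in 1 table. The submitters' processing notes name FastQC, STAR 2.4.0 and edgeR. Genome build, annotation, counting program and strand use were not given in the sources used here. Tally entries, which took 19.3% to 35.4% of reads per library, were left out. Another 27 rows carry dates in place of gene names; they stayed in the fit and are not named. A second deposited table of normalised values was not used. From the counts, edgeR 4.0.16 (R 4.3.3) kept genes by filterByExpr (minimum count 10), scaled libraries by TMM factors and fitted 6 group means over 33 libraries (27 residual degrees of freedom, common biological coefficient of variation 0.128). Standard errors come from the log2 fold change and its F statistic, and intervals are at 95%. Alternatives were DESeq2 1.42.0, limma 3.58.1 voom with sample weights, upper-quartile factors, no filter, fits restricted to the groups of a comparison, a replicate block, a GC and length correction (splines of 5 degrees of freedom per library; GENCODE M21), and leaving out each library. No pair of libraries within a group agreed within sampling noise. Pairs from different groups were not checked for this. The code was tested on simulated data. Named genes are the 38 members; of each other list, at most 4 called genes with the smallest p; Gm2a was chosen after its values were seen, and 1 called gene is not reported here. The members and lists were chosen with earlier results of these data known.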

Additional observations from a re-analysis of the deposited data

Results flagged for a closer look

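In 13 of 228 sets, each 1 of the 38 genes in 1 group, the highest or lowest library lay far from the others by Dixon's test at the 95% level, which chance gives in about 1 set in 20. GF saline replicate 5 was high for Glb1 (29.4 CPM, others 17.1 to 21.7), Gusb (19.2, others 13.7 to 15.3) and Sgsh (9.22, others 4.31 to 5.66). GF saline replicate 2 was high for Man2b1 (73.7, others 62.5 to 65.9), and GF morphine replicate 1 was low for Manba (6.68, others 10.2 to 11.3). H2O saline replicate 8 was high for Gla (13.2, others 10.3 to 11.3) and Sgsh (6.62, others 4.74 to 5.12), and H2O saline replicate 6 low for Galc (25.6, others 28.5 to 29.2). Abx saline replicate 5 was high for Arsb (159, others 126 to 138) and Galns (12.8, others 9.04 to 10.1). Abx saline replicate 1 was high for Ctsz (54.3, others 44.6 to 46.7), and Abx saline replicate 4 for Manba (11.0, others 8.73 to 9.26). H2O morphine replicate 5 was low for Ctsb (541 CPM, others 585 to 601).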

How the results depend on the processing

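Of the 26 calls, 8 were kept under all 7 alternatives and without each library in turn, 11 after the GC and length correction and 18 without each library. Leaving out 1 library at a time gave 8 to 13 called genes of 38 for GF saline against H2O saline, 9 to 14 for GF saline against Abx saline, 0 to 2 for Abx saline against H2O saline, 0 to 4 for GF morphine against H2O morphine, 0 to 1 for the GF interaction, 1 to 1 for morphine in Abx mice, 2 to 2 for Abx morphine against H2O morphine, and 0 to 0 for the others. With DESeq2, 1 gene was called for morphine in H2O mice, 6 for GF morphine against H2O morphine, 4 for Abx morphine against H2O morphine and 1 in the GF interaction. Of all genes, DESeq2 called 1.74%, 8.13%, 12.5% and 1.14% in these, in that order. With voom there were 4 for Abx saline against H2O saline, 4 for morphine in H2O mice, 6 for morphine in Abx mice, 2 for GF morphine and 12 for Abx morphine against H2O morphine. Of all genes, voom called 1.23%, 9.07%, 16.7%, 8.16% and 24.3% in these, in that order. Upper-quartile factors and the absence of a filter each gave 1 for Abx saline against H2O saline, and no filter gave 0 for GF morphine against H2O morphine. Of all genes they called 0.103% and 0.0741% in the saline pair, and no filter called 3.41% in the morphine pair. In fits of only the groups compared there were 0 for Abx saline against H2O saline, 4 for morphine in H2O mice, 0 for GF morphine and 5 for Abx morphine against H2O morphine. These fits called 0.356%, 6.97%, 2.4% and 16.7% of all genes, in that order. The replicate block gave 0 for Abx saline against H2O saline and 0 for GF morphine against H2O morphine, and counts within 1.5 times for the rest. With it the log2 fold changes of Tpp1 and Hexa between Abx saline and H2O saline were -0.24 and -0.27 (adjusted p = 0.116 and 0.145). The labels do not say whether the replicate numbers pair mice. Over 66 pairs of the same number the mean r of deviations was -0.000695. Single pairs ran from -0.473 to 0.462, so these values cannot decide it. The GC and length correction gave 5 for GF saline against Abx saline, where Psap reversed to 0.02, 2 for morphine in Abx mice and 5 for Abx morphine against H2O morphine. Of all genes it called 14.1%, 5.43% and 14.7% in these, in that order. The cause of the changes between settings was not tested. The GF libraries other than GF saline replicate 1 were the shallowest, and the labels give no batch, so depth and GF status cannot be told apart.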
